A study of Mus musculus with 24 samples.

Results

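Purine nucleotides and adenosine act on 2 families of cell-surface receptors, and 10 mouse genes of that system are described here: the nucleotide receptor genes P2ry2, P2ry6, P2ry14, P2rx4 and P2rx7, the ectonucleotidase gene Entpd1, and the adenosine receptor genes Adora1, Adora2a, Adora2b and Adora3. They were taken from the count table by gene symbol, and all 10 of the 10 listed symbols were found among 47643 genes. The microglial receptor gene P2ry12 belongs to the same family and is given only as a reference point. The libraries are bulk RNA-seq of mouse macrophages made from induced pluripotent stem cells (iPSC-derived) or from bone marrow (bone marrow-derived). Each source was sampled at day 0 without co-culture and at days 3, 6 and 12 with co-culture, with n = 3 independent replicates in each of the 8 groups per the series' design text. The labels leave the co-culture partner unnamed, and give no strain, genotype, sex or age. The day 0 groups are the only ones without co-culture, so a difference from day 0 covers time and co-culture together and these cannot be told apart.

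ATP and other nucleotides released by stressed or active cells bind P2X receptors, which are ATP-gated cation channels, and P2Y receptors, which are G protein-coupled. Ectonucleotidases on the cell surface cut ATP and ADP down to AMP, a further enzyme turns AMP into adenosine, and adenosine binds its own G protein-coupled receptors. In macrophages and microglia these receptors are known for steering process movement, phagocytosis and inflammasome activation.

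Between 5839316 and 11805478 counts were assigned to genes in each library, and 15357 to 18321 genes were detected per library. Levels are CPM, the count of a gene relative to the scaled library size, with the SD over 3 libraries. Changes are log2 fold changes with their SE from edgeR's quasi-likelihood test, adjusted by the Benjamini-Hochberg method over the 15000 genes tested. A gene is said to have risen, fallen or changed only where that adjusted p was below 0.05. All 10 macrophage marker genes (Csf1r, Adgre1, Cd68 and others) had counts in every group, with a summed level of 5471 to 5940 CPM in iPSC-derived day 0 libraries and 8067 to 14244 CPM in all later and all bone marrow-derived libraries. Summed levels of 10 neuronal markers were 1.72 to 2.95 CPM in iPSC-derived and 0 to 1.28 CPM in bone marrow-derived cells at day 0. With co-culture they were 10 to 43 and 18.5 to 58 CPM. The 9 microglial markers summed to 1457 to 1803 CPM at iPSC-derived day 0 and 6091 to 9684 at day 12. In bone marrow-derived libraries their sums were 897 to 1019 and 6628 to 7075 CPM. The 6 fibroblast markers summed to 3.39 to 24.7 CPM at iPSC-derived day 0 and 16.9 to 87.4 at day 3. They summed to 357 to 762 CPM at day 6 and 265 to 477 at day 12. In bone marrow-derived libraries they summed to 0.261 to 14.6, 13.8 to 28, 29.2 to 54.2 and 90.5 to 189 CPM at days 0, 3, 6 and 12. Their part in the changes from day 0 was not tested. Lymphocyte and neutrophil markers summed to at most 1.45 CPM in any library. In such bulk libraries, fewer cells of a type and less RNA per cell cannot be told apart.

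Promoter sequences are shown for the members whose change from day 0 differed between the sources at both day 3 and day 12. Of the 5 such genes (P2ry2, P2ry6, P2rx4, Entpd1 and Adora2a), 3 have a transcription start in the RefSeq promoter table for GRCm38.p6 whose preceding 250 bases hold no exon of the counted annotation, and those windows are printed 5′ to 3′ on the gene's strand. They lie at chr7:101012054-101012303 (minus strand, P2ry2), chr5:122707294-122707543 (plus strand, P2rx4) and chr19:40659520-40659769 (plus strand, Entpd1, upstream of the more 3′ of its 2 listed starts). Capitals mark a match to 1 of 4 motifs searched on both strands.
P2ry2: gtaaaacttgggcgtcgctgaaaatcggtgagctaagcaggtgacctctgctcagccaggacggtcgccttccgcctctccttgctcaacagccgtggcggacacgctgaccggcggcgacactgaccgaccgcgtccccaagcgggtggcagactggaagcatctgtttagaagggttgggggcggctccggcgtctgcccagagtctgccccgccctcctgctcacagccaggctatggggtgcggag
P2rx4: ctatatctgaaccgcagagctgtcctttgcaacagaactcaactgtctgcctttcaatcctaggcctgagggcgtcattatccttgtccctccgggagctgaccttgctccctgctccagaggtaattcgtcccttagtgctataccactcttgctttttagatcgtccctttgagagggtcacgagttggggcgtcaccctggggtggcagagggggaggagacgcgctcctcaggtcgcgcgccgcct
Entpd1: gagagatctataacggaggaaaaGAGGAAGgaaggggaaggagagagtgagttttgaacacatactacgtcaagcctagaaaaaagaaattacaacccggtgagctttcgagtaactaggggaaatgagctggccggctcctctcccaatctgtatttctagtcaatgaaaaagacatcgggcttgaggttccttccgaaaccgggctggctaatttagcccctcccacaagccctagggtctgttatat
The motifs were GAGGAAG (bound by PU.1 and other ETS factors), TGANTCA (AP-1), CACGTG (E-box) and TGACGTCA (CRE), which do not overlap each other in these windows. The Entpd1 window held GAGGAAG with its first base 227 bases before the start. That motif was found in 10.6% of the 32851 promoter windows of the same length in the table, TGANTCA in 6.75%, CACGTG in 6.02% and TGACGTCA in 1.55%. None of the 4 was found in the printed P2ry2 or P2rx4 window. P2ry2 has another listed start, whose window (chr7:101011999-101012248) holds a counted exon and is not printed. That window held CACGTG with its first base 18 bases before the start. The window of the other Entpd1 start, also with a counted exon, held none of the 4. The printed P2ry2 and Entpd1 windows lie within the counted spans of their genes. A match describes the letters and is not a measured site.

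In the iPSC-derived series, 5 of the 10 genes were called at day 3 against day 0, all higher, where 19.4% of all tested genes were called (11.2% higher, 8.14% lower). At day 6 the count was 7 (4 higher, 3 lower) against 25.4% of all genes (14.3% higher, 11% lower), and at day 12 it was 6 (3 higher, 3 lower) against 24.7% (14% higher, 10.7% lower). Their median log2 fold change was 0.62 at day 3, 0.41 at day 6 and 0.04 at day 12, beside 0.04, 0.09 and 0.04 over all tested genes. In the bone marrow-derived series 3 were called at day 3 (2 higher, 1 lower), where 18.5% of all genes were (11.9% higher, 6.61% lower). At day 6 the count was 2 (1 higher, 1 lower) against 19.6% (12.7% higher, 6.89% lower), and at day 12 it was 4 (1 higher, 3 lower) against 23.8% (14.7% higher, 9.08% lower). The medians there were 0.47, 0.06 and -0.08, beside 0.04 over all genes at each day. Per kilobase of exon, P2ry6, P2rx4 and Entpd1 had the highest levels in each group. Averaged over all 24 libraries, P2ry6 stood at 140 CPM per kilobase, P2rx4 at 82.8, Entpd1 at 56.7 and P2rx7 at 20.4. P2ry2 (3.73) and P2ry14 (2.44) were far lower, and the adenosine receptor genes ran from 0.163 (Adora1) to 1.27 (Adora2b) CPM per kilobase. The order was not the same in every group. At iPSC-derived day 0 P2rx4 (65.7 CPM per kilobase) was above P2ry6 (52.1). Adora2b stood at 5.17 in bone marrow-derived day 3, beside P2ry14 at 4.99, and at 0.0706 in iPSC-derived day 6. Lengths cover all annotated exons of a gene, 1845 bases for Adora2b and 11059 for P2ry14. Their bone marrow-derived day 3 means were 9.54 and 55.2 CPM.

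**Figure D1:**
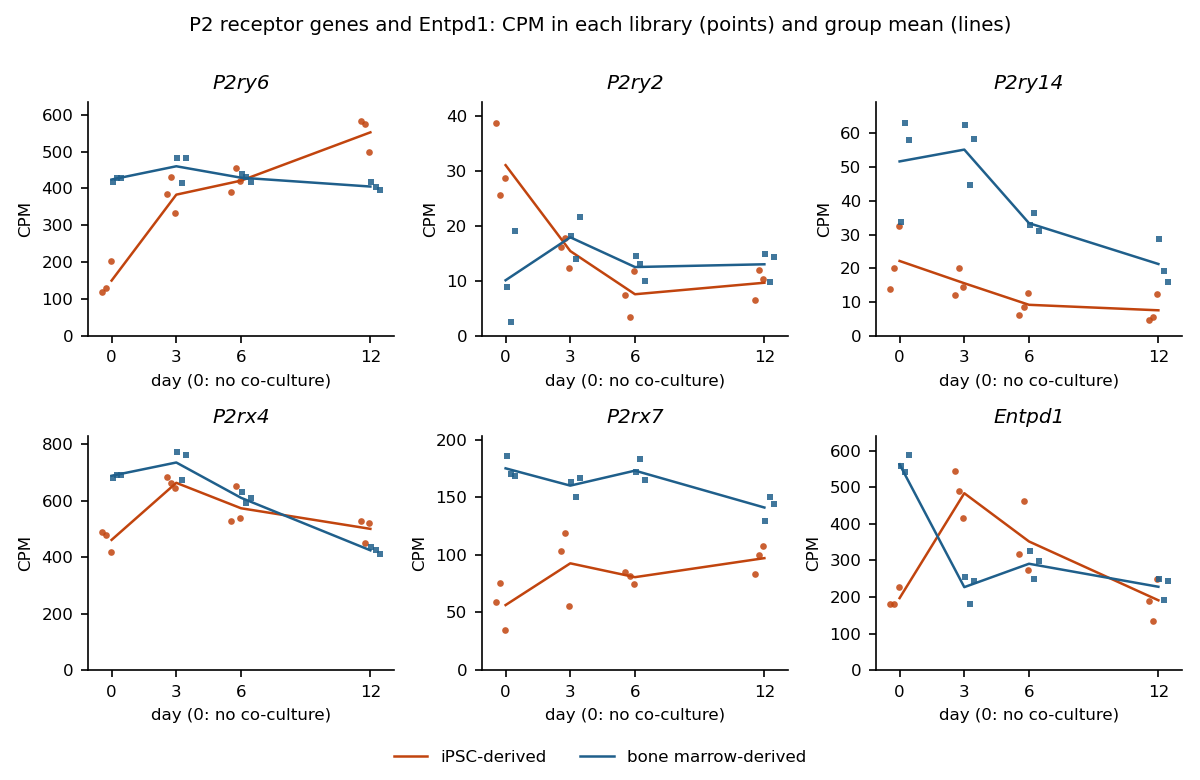
Level of P2ry6, P2ry2, P2ry14, P2rx4, P2rx7 and Entpd1 (vertical axis, CPM, from 0) against day (horizontal axis; day 0 is without co-culture) in iPSC-derived (orange circles) and bone marrow-derived (blue squares) macrophages; points are libraries, offset sideways for visibility, and lines join group means of n = 3. P2ry6 climbs from 150 to 552 CPM in iPSC-derived cells while bone marrow-derived means stay between 405 and 460, and the Entpd1 lines cross between day 0 and day 3.

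P2ry6 encodes a Gq-coupled receptor for UDP that is known for triggering phagocytosis by microglia. It is ENSMUSG00000048779.5, on the minus strand of chromosome 7 at 100937630 to 100974649 (GRCm38). In iPSC-derived cells it was higher by day 3 and highest at day 12, while bone marrow-derived cells held a steady level throughout. The 3 iPSC-derived day 0 libraries had 120, 130 and 202 CPM. Day 3 gave 385, 431 and 333 CPM, day 6 gave 390, 454 and 419, and day 12 gave 582, 575 and 498. Every co-cultured iPSC-derived library was therefore above every day 0 library, and all 3 day 12 libraries were above all others of either source. Bone marrow-derived libraries had 418, 427 and 428 CPM at day 0, 483, 415 and 482 at day 3, 439, 431 and 418 at day 6, and 416, 403 and 395 at day 12. In the iPSC-derived series P2ry6 rose by 1.35 ± 0.15 log2 units at day 3 (adjusted p = 3.3e-07), 1.48 ± 0.15 at day 6 (8.2e-08) and 1.88 ± 0.15 at day 12 (2.3e-09). The further rise from day 3 to day 12 was 0.53 ± 0.15 (adjusted p = 0.024). That call was lost without iPSC-derived day 3 replicate 1 or 3 or day 12 replicate 1 or 2 (adjusted p 0.068 to 0.1), and with only the 2 groups in the fit (0.12). In the bone marrow-derived series the difference from day 0 was 0.12 ± 0.15 at day 3 (adjusted p = 0.65), 0.02 ± 0.15 at day 6 (0.96) and -0.07 ± 0.15 at day 12 (0.79), none of them called.

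P2ry6 thus differed between the sources at day 0, where it was 2.82-fold lower in iPSC-derived cells (SE 0.15 on the log2 scale; 150 ± 44.8 against 424 ± 5.17 CPM; adjusted p = 2.4e-08). At days 3 and 6 the source differences were -0.26 ± 0.15 and -0.03 ± 0.15 and were not called (adjusted p = 0.24 and 0.94). At day 12 the iPSC-derived mean was the higher one, 552 ± 46.4 against 405 ± 10.5 CPM. That difference of 0.45 ± 0.15 missed the threshold (adjusted p = 0.052), with no overlap between libraries, and passed it with DESeq2 (0.44, adjusted p = 0.032) and without iPSC-derived day 12 replicate 3 (0.52, 0.037). The change from day 0 differed between the sources by 1.23 ± 0.21 log2 units at day 3 (adjusted p = 8.9e-05) and by 1.94 ± 0.21 at day 12 (3.1e-07). In the order of the 8 group means, iPSC-derived day 0 lay below and iPSC-derived day 12 above the rest without overlap. The other 6 means, from 383 to 460 CPM, each overlapped their neighbours.

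P2ry2 encodes a Gq-coupled receptor for ATP and UTP. It lies beside P2ry6, on the minus strand of chromosome 7 at 100996568 to 101012866 (ENSMUSG00000032860.5), and moved the opposite way in iPSC-derived cells. The iPSC-derived day 0 libraries had 38.7, 25.6 and 28.6 CPM, above all 21 other libraries. By day 3 they had 16.2, 17.7 and 12.4 CPM, by day 6 7.51, 3.47 and 11.7, and by day 12 6.59, 12 and 10.3. Bone marrow-derived day 0 libraries were spread over 8.89, 2.44 and 19 CPM. Later bone marrow-derived libraries had 18.1, 14 and 21.5 CPM at day 3, 14.5, 13.1 and 9.94 at day 6, and 14.9, 9.82 and 14.3 at day 12. In iPSC-derived cells P2ry2 fell by 2.02 on the log2 scale at day 6 (SE 0.47, adjusted p = 0.0024) and by 1.68 at day 12 (SE 0.46, adjusted p = 0.0092). The day 12 call was lost without iPSC-derived day 12 replicate 1 (-1.46, adjusted p = 0.052). The day 3 difference of -1.01 ± 0.45 was not called (adjusted p = 0.13), although the libraries did not overlap, and was called with only the 2 groups in the fit (-0.97, 0.041). No bone marrow-derived difference from day 0 was called (0.83 ± 0.46, 0.31 ± 0.46 and 0.37 at days 3, 6 and 12; adjusted p = 0.24, 0.7 and 0.62). Without bone marrow-derived day 0 replicate 3, the library at 19 CPM, the day 3 difference became 1.68 and passed (adjusted p = 0.019).

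At day 0 P2ry2 was higher in iPSC-derived cells by 1.62 ± 0.46 log2 units (31 ± 6.88 against 10.1 ± 8.36 CPM; adjusted p = 0.0078), and by 2.46 without bone marrow-derived day 0 replicate 3 (0.00044). From day 3 on the sources overlapped and differed by -0.21 ± 0.45, -0.72 ± 0.47 and -0.43 ± 0.46 (adjusted p = 0.81, 0.37 and 0.65). Apart from iPSC-derived day 0, all neighbouring groups in the order of levels overlapped. Between the sources the change from day 0 differed by -1.83 ± 0.64 at day 3 (adjusted p = 0.045) and -2.05 ± 0.65 at day 12 (0.026). Both calls depended on single libraries. The day 3 call was lost without any 1 of iPSC-derived day 0 replicates 1 and 3, iPSC-derived day 3 replicates 1, 2 and 3, bone marrow-derived day 0 replicates 1 and 2, and bone marrow-derived day 3 replicates 1 and 3 (adjusted p 0.055 to 0.1). The day 12 call was lost without any 1 of replicate 1 of iPSC-derived day 0 or day 12, replicates 1 and 2 of bone marrow-derived day 0, and replicates 1 and 3 of bone marrow-derived day 12 (adjusted p 0.05 to 0.071). With only the 4 groups concerned in the fit, neither was called (adjusted p = 0.067 and 0.053).

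P2ry14, a Gi-coupled receptor gene for UDP-glucose and related sugars, was the member whose difference between sources was called at all 4 days. It is ENSMUSG00000036381.13, on the minus strand of chromosome 3 at 59113855 to 59153618. Bone marrow-derived libraries had 33.8, 63.2 and 58 CPM at day 0, 62.6, 44.7 and 58.2 at day 3, 32.8, 36.3 and 31.1 at day 6, and 28.7, 19.3 and 16 at day 12. The iPSC-derived libraries had 13.9, 20.2 and 32.6 CPM at day 0, 12.1, 20.1 and 14.6 at day 3, 6.25, 8.68 and 12.7 at day 6, and 4.79, 5.5 and 12.4 at day 12. On each day every bone marrow-derived library was above every iPSC-derived one, although in the order of all 8 groups each mean overlapped its neighbour. P2ry14 was lower in iPSC-derived cells by 1.21 ± 0.35 log2 units at day 0 (adjusted p = 0.0078), 1.82 ± 0.35 at day 3 (0.00048), 1.85 ± 0.36 at day 6 (0.0008) and 1.49 ± 0.36 at day 12 (0.0081). The day 0 call was lost without iPSC-derived day 0 replicate 1 (-0.97, adjusted p = 0.054). The day 12 call was lost without iPSC-derived day 12 replicate 1 or 2 or bone marrow-derived day 12 replicate 1 (adjusted p 0.052 to 0.06) and with only those 2 groups in the fit (0.062).

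P2ry14 also fell with time in both sources. In iPSC-derived cells it fell by 1.26 on the log2 scale at day 6 (SE 0.36, adjusted p = 0.011) and by 1.55 at day 12 (SE 0.36, adjusted p = 0.0026), after a difference of -0.51 at day 3 that was not called (0.34). In bone marrow-derived cells it fell by 1.28 from day 0 to day 12 (SE 0.35, adjusted p = 0.0086) and by 1.37 from day 3 to day 12 (SE 0.35, 0.012). Its change from day 0 did not pass the test of a difference between sources at day 3 or day 12 (-0.61 and -0.27). The iPSC-derived day 6 call was lost without iPSC-derived day 6 replicate 1 (adjusted p = 0.061), day 0 replicate 3 (0.091) or the other groups (0.062), and the day 12 call without the other groups (0.051). Both bone marrow-derived calls were lost without bone marrow-derived day 12 replicate 3 (adjusted p = 0.051 and 0.079), and the day 3 to day 12 call also without day 12 replicate 2 (0.061) or day 3 replicate 1 (0.053).

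**Figure D2:**
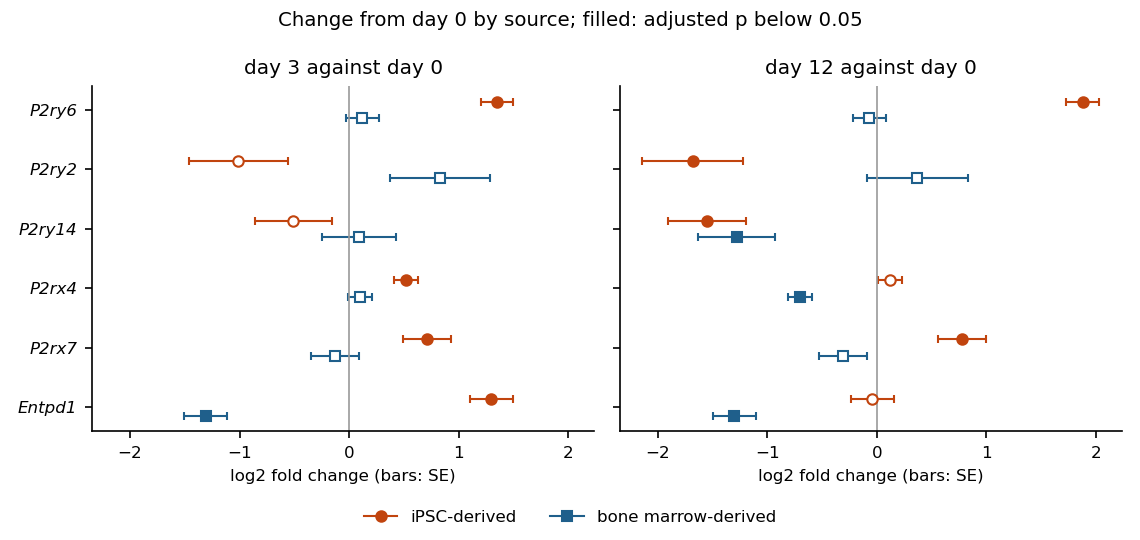
Log2 fold change from day 0 (horizontal axis; bars are the SE of the edgeR fit) of the 6 P2 receptor and ectonucleotidase genes at day 3 (left) and day 12 (right), in iPSC-derived (orange circles) and bone marrow-derived (blue squares) macrophages with n = 3 per group; filled symbols have an adjusted p below 0.05. Entpd1 lies at 1.30 in iPSC-derived and -1.31 in bone marrow-derived cells at day 3, and P2ry14 lies below 0 and filled in both sources at day 12.

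Among the ion channels, P2rx4 encodes an ATP-gated cation channel found largely on lysosomes of macrophages. It is ENSMUSG00000029470.15, on the plus strand of chromosome 5 at 122707544 to 122729738, next to P2rx7. P2rx4 had its highest mean at day 3 in both sources and ended at day 12 with means of 500 ± 43 and 424 ± 11.8 CPM. The iPSC-derived libraries had 488, 478 and 418 CPM at day 0, 684, 662 and 643 at day 3, 528, 650 and 540 at day 6, and 529, 451 and 521 at day 12. The bone marrow-derived libraries had 679, 692 and 692 CPM at day 0, 772, 673 and 762 at day 3, 629, 591 and 611 at day 6, and 435, 425 and 412 at day 12. All 3 iPSC-derived day 3 libraries were above all iPSC-derived day 0 and day 12 libraries, and the bone marrow-derived day 12 libraries were below every earlier library of that source.

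In iPSC-derived cells P2rx4 rose by 0.52 ± 0.11 log2 units at day 3 (adjusted p = 0.00088; 0.33 without scaling factors, 0.047) and by 0.31 ± 0.11 at day 6 (0.034), and at day 12 its difference from day 0 was 0.12 (0.47). From day 3 to day 12 it fell by 0.41 (SE 0.11, adjusted p = 0.017). P2rx4 fell in bone marrow-derived cells by 0.70 from day 0 to day 12 (SE 0.11, adjusted p = 2.6e-05) and by 0.79 from day 3 to day 12 (SE 0.11, 2.4e-05). At day 0 it was lower in iPSC-derived cells by 0.58 ± 0.11 (461 ± 37.9 against 688 ± 7.68 CPM; adjusted p = 0.00014), and at days 3, 6 and 12 the source differences of -0.15, -0.09 and 0.24 (SE 0.11 each) were not called (0.38, 0.67 and 0.18). Between sources the change from day 0 to day 12 differed by 0.81 ± 0.15 (adjusted p = 0.00031), and by 0.51 without scaling factors (0.026). That at day 3 differed by 0.43 ± 0.15 (0.047) and was lost in 10 of 12 fits that left out 1 library (adjusted p 0.054 to 0.13), the exceptions being those without iPSC-derived day 0 replicate 1 or day 3 replicate 3, and without scaling factors (0.15, 0.58) or without the filter on low counts (0.42, 0.32). The iPSC-derived day 6 call was lost without iPSC-derived day 0 replicate 2 or 3 or day 6 replicate 2 (0.053 to 0.16), without scaling factors (0.098), the filter (0.22) or the other groups (0.26). The iPSC-derived day 3 to day 12 call was lost without day 3 replicate 1 (0.061) or day 12 replicate 2 (0.073), without scaling factors (0.078), the filter (0.14) or the other groups (0.15).

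P2rx7 encodes the ATP-gated channel that opens at high ATP and is known for driving potassium efflux and NLRP3 inflammasome activation. It is ENSMUSG00000029468.17, on the plus strand of chromosome 5 at 122643911 to 122691432, and 119 of its exon bases (1.993%) are shared with Mir8115, where reads were not assigned. Every bone marrow-derived library (129 to 186 CPM) was above every iPSC-derived library (35.2 to 119 CPM), whatever the day. The iPSC-derived libraries had 58.8, 75.4 and 35.2 CPM at day 0, 103, 119 and 55.5 at day 3, 85.4, 81.5 and 74.9 at day 6, and 83.4, 99.7 and 108 at day 12. The bone marrow-derived libraries had 186, 170 and 168 CPM at day 0, 163, 150 and 167 at day 3, 172, 183 and 165 at day 6, and 129, 150 and 144 at day 12. Neighbouring groups overlapped except where the order passes from bone marrow-derived day 12 to iPSC-derived day 12. P2rx7 was lower in iPSC-derived cells by 1.63 ± 0.22 log2 units at day 0 (adjusted p = 2.6e-06), 0.79 ± 0.22 at day 3 (0.011) and 1.11 ± 0.22 at day 6 (0.00089). At day 12 the difference of -0.54 ± 0.22 was not called (97.1 ± 12.6 against 141 ± 11.1 CPM; adjusted p = 0.13), and was called without scaling factors (-0.76, 0.027). The day 3 call was lost without iPSC-derived day 3 replicate 3, the library at 55.5 CPM (-0.50, 0.088), and with only the 2 groups in the fit (0.052).

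With time P2rx7 rose in iPSC-derived cells by 0.71 ± 0.22 at day 3 (adjusted p = 0.022) and by 0.78 ± 0.22 at day 12 (0.01), with 0.51 ± 0.22 at day 6 (0.088). No bone marrow-derived difference from day 0 was called (-0.13, -0.01 and -0.31 at days 3, 6 and 12; adjusted p = 0.75, 0.99 and 0.33). The iPSC-derived calls depended on day 0 replicate 3, at 35.2 CPM: without it the values were 0.47 at day 3 (adjusted p = 0.13) and 0.53 at day 12 (0.068). The day 3 call was also lost without day 3 replicate 1 (0.08) or 2 (0.14), without scaling factors (0.51, 0.11), and with only the 2 groups in the fit (0.19), which also ended the day 12 call (0.071). The day 6 difference passed without iPSC-derived day 0 replicate 2 (0.78, adjusted p = 0.019). The change from day 0 differed between sources by 1.09 ± 0.31 at day 12 (adjusted p = 0.012) and, without scaling factors, by 0.79 (0.076). At day 3 it differed by 0.84 ± 0.31 (0.054), which passed with DESeq2 (0.042), without the filter (0.024) and without iPSC-derived day 0 replicate 2 (0.011) or day 3 replicate 3 (0.0033).

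**Figure D3:**
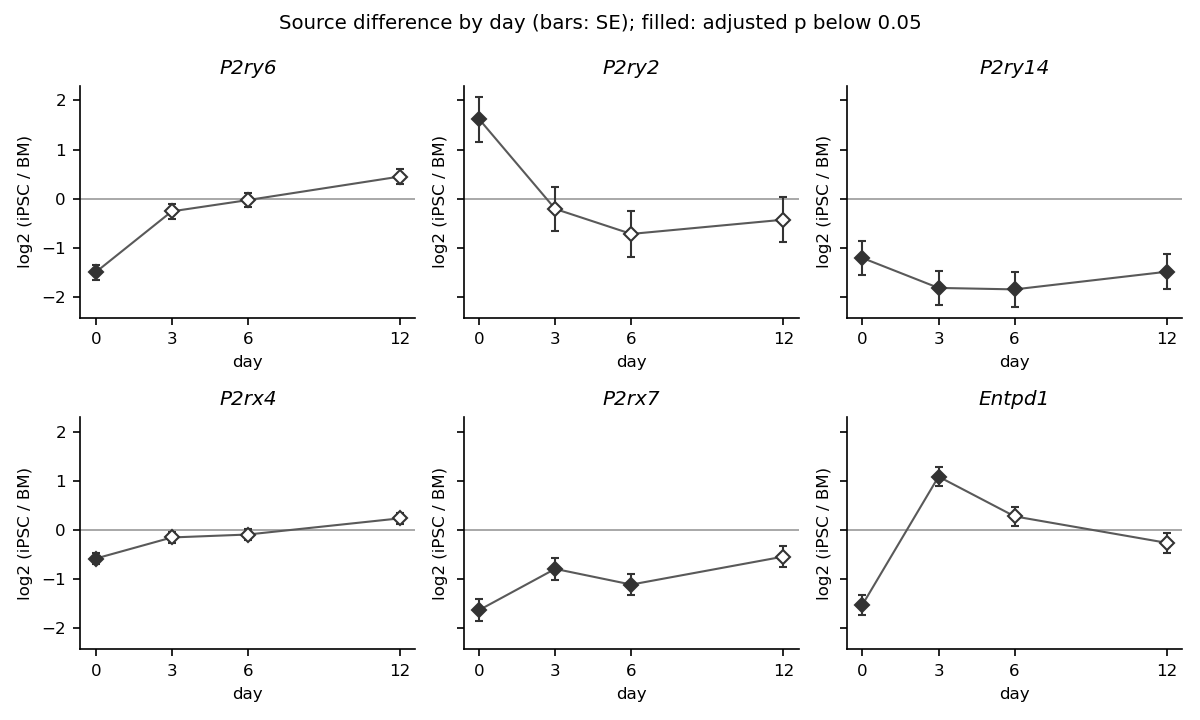
Log2 ratio of iPSC-derived to bone marrow-derived (BM) level (vertical axis; bars are the SE of the edgeR fit, n = 3 per group) against day (horizontal axis) for 6 genes; filled diamonds have an adjusted p below 0.05. All 6 differ at day 0, P2ry14 lies below 0 and filled at each day, and Entpd1 passes from -1.52 at day 0 to 1.09 at day 3.

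Entpd1 encodes the ectonucleotidase that cuts extracellular ATP and ADP to AMP, known in microglia as a surface enzyme. It is ENSMUSG00000048120.16, on the plus strand of chromosome 19 at 40612366 to 40741602, and its window upstream of the more 3′ start is printed above. Its levels went in opposite directions in the 2 sources between day 0 and day 3. The iPSC-derived libraries had 182, 181 and 228 CPM at day 0 and 546, 490 and 415 at day 3. The bone marrow-derived libraries had 558, 543 and 588 CPM at day 0 and 254, 181 and 245 at day 3. At both days the sources did not overlap, with the order reversed between them. At day 6 iPSC-derived libraries had 318, 463 and 275 CPM and bone marrow-derived ones 325, 248 and 299. By day 12 the values were 189, 135 and 249 CPM against 248, 193 and 243, which overlapped.

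Entpd1 rose in iPSC-derived cells by 1.30 ± 0.20 log2 units at day 3 (adjusted p = 3.8e-05) and by 0.84 ± 0.20 at day 6 (0.0029), and then fell by 1.34 from day 3 to day 12 (SE 0.20, adjusted p = 0.00011). Its day 12 level did not differ from day 0 beyond the spread (-0.04, adjusted p = 0.91; 191 ± 57.4 against 197 ± 26.9 CPM). Entpd1 fell in bone marrow-derived cells by 1.31 at day 3 (SE 0.20, adjusted p = 3.1e-05), by 0.95 at day 6 (SE 0.20, 0.0011) and by 1.30 at day 12 (SE 0.20, 2.8e-05), with 0.01 ± 0.20 between day 3 and day 12. Against bone marrow-derived cells, iPSC-derived cells were lower by 1.52 ± 0.20 at day 0 (adjusted p = 2e-06) and higher by 1.09 ± 0.20 at day 3 (0.00026). At days 6 and 12 the source differences were 0.28 ± 0.20 and -0.26 ± 0.20 (adjusted p = 0.43 and 0.51). The change from day 0 differed between the sources by 2.61 ± 0.29 at day 3 (adjusted p = 2.3e-07) and by 1.26 ± 0.28 at day 12 (0.002). In the order of the 8 groups each mean overlapped its neighbour, from bone marrow-derived day 0 (563 ± 22.8 CPM) down to iPSC-derived day 12. Nt5e, whose enzyme takes the next step from AMP to adenosine, had group means of at most 2.12 CPM, and its differences from day 0 to day 12 were not called in either source (adjusted p = 0.91 and 0.47). Between sources Nt5e was lower in iPSC-derived cells at day 3, where bone marrow-derived cells had 30 counts against 1 (ratio 28.5, interval 4.73 to 1161; adjusted p = 0.048). At day 6 it was at least 17.8-fold lower (49 counts against 0; adjusted p = 0.0083), and at days 0 and 12 the difference was not called (0.085 and 0.44).

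The 4 adenosine receptor genes were near the limit of detection in most groups, and single libraries had 0 counts for 3 of them. Adora1 was at 0 in 6 of 24 libraries, Adora2a in 9 and Adora2b in 7, while Adora3 had counts in all. A count of 0 over the 3 libraries of a group allows up to 3 counts. Folds of pooled counts against such a group are given as lower bounds, which cover counting error in that group only. Where a group had 1 to 3 counts the ratio of scaled counts is given with its exact 95% interval, which covers counting error only.

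**Figure D4:**
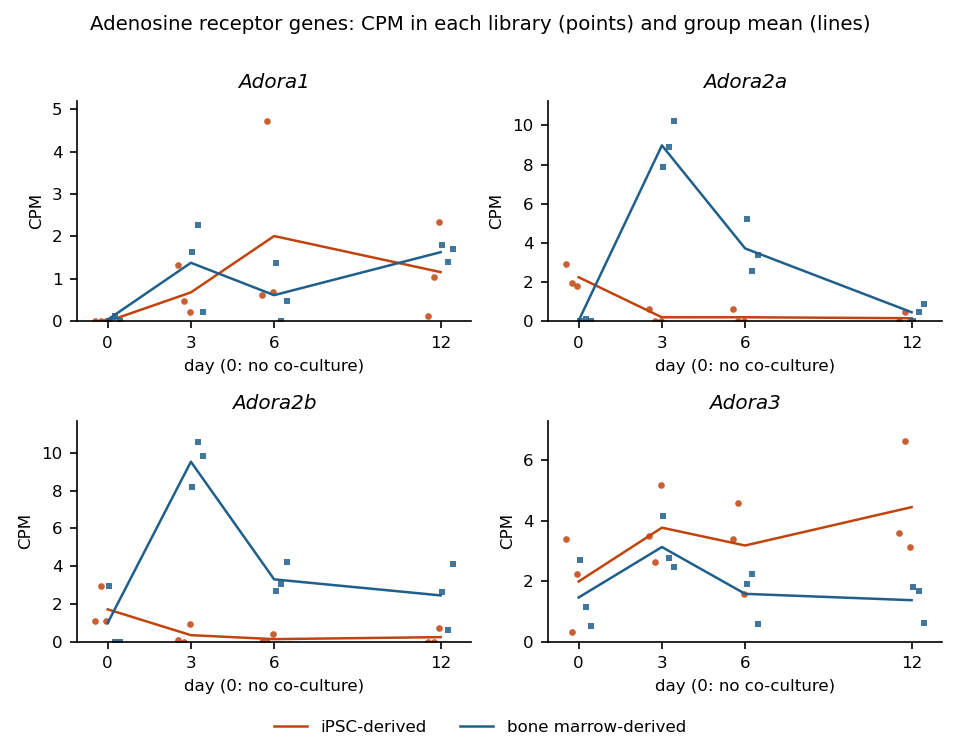
Level of the 4 adenosine receptor genes (vertical axis, CPM, from 0, scaled per panel) against day (horizontal axis; day 0 is without co-culture) in iPSC-derived (orange circles) and bone marrow-derived (blue squares) macrophages; points are libraries, offset sideways, and lines join group means of n = 3. Adora2a and Adora2b stand at 8.98 and 9.54 CPM in bone marrow-derived cells at day 3 and below 4 CPM in each other group mean.

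Adora2a and Adora2b encode Gs-coupled receptors that raise cAMP, and Adora2a is known for damping inflammatory responses of macrophages. Adora2a is ENSMUSG00000020178.5 on the plus strand of chromosome 10 at 75316943 to 75334788. In bone marrow-derived cells it was found in 1 read pair over the 3 day 0 libraries and then in 72, 90 and 91 at day 3, which is 7.87, 8.9 and 10.2 CPM. At day 6 the libraries had 5.22, 2.56 and 3.39 CPM and at day 12 0, 0.496 and 0.9. It was thus high at day 3 in all 3 bone marrow-derived libraries and back near 0 by day 12. The iPSC-derived libraries had 2.95, 1.97 and 1.82 CPM at day 0, and 2 of the 3 libraries at each later day had 0 counts, the third between 0.474 and 0.625 CPM.

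Adora2a rose in bone marrow-derived cells at day 3, with a ratio of 216 to day 0 (interval 38.4 to 8554; adjusted p = 0.0012), and at day 6, with a ratio of 93.4 (16.4 to 3730; adjusted p = 0.0057). At day 12 the ratio of 11.6 (1.78 to 487) was not called (adjusted p = 0.17), and from day 3 to day 12 Adora2a fell by 4.22 on the log2 scale (SE 1.19, adjusted p = 0.026). In iPSC-derived cells it fell by 3.41 at day 6 (SE 1.27, adjusted p = 0.05, just under the threshold) and by 3.65 at day 12 (SE 1.27, 0.037), and its day 3 difference of -3.31 was not called (0.063). The source difference changed sign after day 0: at day 0 the iPSC-derived level was higher, with a ratio of 54 (9.35 to 2168; adjusted p = 0.0077), and at days 3 and 6 it was lower by 5.30 ± 1.30 (0.0045) and 4.14 ± 1.28 (0.031). The iPSC-derived counts behind these sizes were 6 and 5, all in replicate 1 of each day, and without that replicate the fitted differences were -9.34 (0.0024) and -8.10 (0.0089), which are no bounds since the other libraries are at 0. The change from day 0 differed between the sources at day 3 (adjusted p = 0.0003) and day 12 (0.018). No size is given for those differences because the bone marrow-derived day 0 group held 1 count.

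The smaller Adora2a calls rested on few counts. In iPSC-derived cells all 5 counts at day 12 were in replicate 2, and without the library that held the counts the fitted falls were -7.36 at day 6 (adjusted p = 0.012) and -7.34 at day 12 (0.013), again against libraries at 0. The day 6 call was lost without any 1 of day 0 replicates 1, 2 and 3 and day 6 replicates 2 and 3 (adjusted p 0.06 to 0.14), and the day 12 call without day 0 replicate 1 or 2 or day 12 replicate 1 or 3 (0.056 to 0.12). With only the 2 groups in the fit neither was called (0.13 and 0.12), and DESeq2 size factors ended the day 6 call (0.053). The day 3 difference passed without scaling factors (0.044), without the filter (0.019), with DESeq2 (0.027) and without day 3 replicate 1 (adjusted p = 0.017). The bone marrow-derived fall from day 3 to day 12 was lost without any 1 of day 3 replicates 1, 2 and 3 and day 12 replicates 1 and 2 (0.058 to 0.095). The day 6 source call was lost without iPSC-derived day 6 replicate 2 or 3 or bone marrow-derived day 6 replicate 1 or 3 (0.058 to 0.12). The day 12 difference between the sources' changes was lost without bone marrow-derived day 12 replicate 3 (0.068) and with only the 4 groups in the fit (0.057).

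Adora2b (ENSMUSG00000018500.2, plus strand of chromosome 11 at 62248984 to 62266453) had its highest level in the same group. Bone marrow-derived libraries had 8.2, 10.6 and 9.82 CPM at day 3, above all 21 other libraries, 2.66, 3.04 and 4.21 at day 6, and 2.61, 0.595 and 4.14 at day 12. At day 0 the 23 counts all came from replicate 1 (2.96 CPM), and the other 2 libraries had 0. The iPSC-derived libraries had 1.09, 2.95 and 1.07 CPM at day 0 and at most 0.919 CPM afterwards. Adora2b was lower in iPSC-derived than in bone marrow-derived cells at day 3 by 4.76 ± 1.40 log2 units (adjusted p = 0.018), a call lost without iPSC-derived day 3 replicate 1 (0.081) or 2 (0.075). At day 6 the difference of -4.39 ± 1.48 just missed the threshold (adjusted p = 0.05). It passed with DESeq2 (0.016), without scaling factors (0.045), the filter (0.00055) or the other groups (0.032), and without iPSC-derived day 6 replicate 3 (fitted value -7.91, 0.042), which held all 4 counts. The day 12 difference of -3.28 ± 1.38 was not called (0.15), and passed without the filter (0.015) and without iPSC-derived day 12 replicate 3 (0.038).

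The bone marrow-derived difference of Adora2b from day 0 was 3.26 ± 1.27 at day 3 and was not called (adjusted p = 0.078). It was called with DESeq2 (3.29, adjusted p = 0.048), without the filter (0.0032), with only the 2 groups in the fit (0.014), and without day 0 replicate 1 (fitted value 9.44, 0.0031), which leaves day 0 at 0 counts. Without that library the differences at day 6 (adjusted p = 0.013) and day 12 (0.016) and the day 0 source difference (0.017) also passed. With it they were 1.74 ± 1.23, 1.31 ± 1.22 and 0.79 ± 1.23 (0.36, 0.49 and 0.66). In iPSC-derived cells the differences from day 0 of -2.29, -3.45 and -2.76 were not called (adjusted p = 0.25, 0.089 and 0.15), and those at days 6 and 12 passed without the filter (0.0091 and 0.035) and without replicate 3 of the later day (0.047 and 0.032). The sources differed in the change from day 0 to day 3 by -5.55 ± 1.84 (adjusted p = 0.033). The size is poorly fixed: the fitted value was -11.72 without bone marrow-derived day 0 replicate 1, which leaves that group at 0 counts. The call was lost without any 1 of iPSC-derived day 0 replicate 2, iPSC-derived day 3 replicates 1 and 2, bone marrow-derived day 0 replicates 2 and 3, and bone marrow-derived day 3 replicates 1, 2 and 3 (0.052 to 0.082). The corresponding day 12 difference of -4.07 ± 1.84 was not called (0.13), and passed without the filter (0.018), iPSC-derived day 12 replicate 3 (0.026) or bone marrow-derived day 0 replicate 1 (0.0043).

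Of the bone marrow-derived groups, day 3 also had the highest sums of endothelial and neuronal markers. The 5 endothelial markers summed to 2.67 to 5.99 CPM at day 0, 42.7 to 50.7 at day 3, 20.5 to 27 at day 6 and 6.54 to 11.6 at day 12. Most of the day 3 sum was Pecam1 (41.8 ± 4.35 CPM), with Cldn5 and Tek at 0 and Cdh5 at 0.52 ± 0.808 CPM. The neuronal markers followed a like course, with 0 to 1.28 CPM at day 0 and 41.8 to 58 at day 3, Slc17a6 and Slc17a7 being at 0. The 10 macrophage markers summed to 10271 to 11049 CPM at day 0 and 12919 to 14244 at day 3. Their sums were 12461 to 13103 CPM at day 6 and 11277 to 11983 at day 12. The part of endothelial or neuronal cells in the Adora2a and Adora2b values was not tested.

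Adora1, a Gi-coupled receptor gene best known from neurons, had 0 counts in all 3 iPSC-derived day 0 libraries and 1 count in the 3 bone marrow-derived ones. It is ENSMUSG00000042429.8, on the minus strand of chromosome 1 at 134199223 to 134235431. After co-culture the iPSC-derived libraries held 13, 4 and 2 counts at day 3, 5, 38 and 7 at day 6, and 1, 11 and 23 at day 12. The bone marrow-derived libraries held 15, 23 and 2 counts at day 3, 13, 0 and 4 at day 6, and 18, 14 and 19 at day 12. No group mean was above 2.01 ± 2.34 CPM, and groups overlapped their neighbours throughout. By pooled counts, Adora1 in iPSC-derived cells was at least 6.53-fold higher at day 3 (adjusted p = 0.034). It was at least 17.5-fold higher at day 6 (0.0058) and 11.2-fold at day 12 (0.013). Replicate 2 held 38 of the 50 day 6 counts, and day 12 replicate 1 held 1 count. In bone marrow-derived cells the ratio to day 0 was 34.1 at day 3 (interval 5.78 to 1380; adjusted p = 0.042) and 39.3 at day 12 (6.75 to 1584; 0.027), both called, and 16.9 at day 6 (2.65 to 706; 0.12), not called. The iPSC-derived day 3 call was lost without any 1 of the 3 day 0 libraries or day 3 replicate 1 (0.082 to 0.11), and with only the 2 groups in the fit (0.11), which also ended the day 12 call (0.084). The bone marrow-derived day 3 call was lost without any 1 of the day 0 libraries or day 3 replicate 1 or 2 (0.059 to 0.13), and the day 12 call without day 0 replicate 1 (0.093) or 3 (0.09). No source difference in Adora1 was called.

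The sums of neuronal, astrocytic, fibroblast and oligodendrocyte markers over these days are given without a test. In iPSC-derived libraries the neuronal sum was 1.72 to 2.95 CPM at day 0, 17.9 to 42.6 at day 3, 21 to 43 at day 6 and 10 to 24.6 at day 12, with Slc17a6 at 0 on each day. The astrocytic sum of 8 markers was 28.6 to 50.3, 22.7 to 33.1, 55.8 to 72.4 and 90 to 99 CPM there. From day 0 to day 3, pooled counts of single markers there went from 1 to 27 for Gfap and 1 to 16 for Slc1a2. Sox9 went from 0 to 24 and Aqp4 from 2 to 0. In bone marrow-derived libraries the neuronal sum was 0 to 1.28, 41.8 to 58, 24.1 to 48.9 and 18.5 to 25.1 CPM. The astrocytic sum there was 15.1 to 24, 34.2 to 48.1, 35.3 to 59 and 63.1 to 87 CPM. The 8 oligodendrocyte markers summed to 89.6 to 125, 93.2 to 167, 142 to 317 and 111 to 224 CPM in iPSC-derived libraries. In bone marrow-derived libraries they summed to 57.6 to 73.3, 79.1 to 107, 78.4 to 98.4 and 87.8 to 121 CPM. Cspg4 alone had 1593 pooled counts at iPSC-derived day 0. In iPSC-derived cells Olig1 had 3, 115, 419 and 677 pooled counts at days 0, 3, 6 and 12. Olig2 had 0, 77, 70 and 71 there, and Mog was at 0 at day 3. The mean of Adora1 was highest at day 6 in iPSC-derived and at day 12 in bone marrow-derived cells, but neighbouring groups overlapped. In bone marrow-derived cells its day 12 level did not differ from day 3 beyond the spread (0.24, adjusted p = 0.94). Median fibroblast sums were highest at day 6 in iPSC-derived and day 12 in bone marrow-derived libraries. For neuronal sums these were days 6 and 3, and for astrocytic and oligodendrocyte sums day 12 in both sources. The part of such cells in the Adora1 counts was not tested. On the opposite strand Mybph shares 1162 exon bases (20.09%) with Adora1. Strand was not used in counting and reads in shared bases were left unassigned. Mybph itself was at 0.569 CPM or less in every library.

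Adora3, a Gi-coupled receptor gene, kept a low level in all 24 libraries, from 0.328 to 6.63 CPM with a median of 2.55. It is ENSMUSG00000000562.5, on the plus strand of chromosome 3 at 105870858 to 105908926, and shares 779 exon bases (20.89%) with Tmigd3, so its level leaves those bases out. Group means ran from 1.37 ± 0.647 CPM in bone marrow-derived day 12 to 4.45 ± 1.9 CPM in iPSC-derived day 12, and every group overlapped its neighbour. None of its tests passed. The day 12 differences from day 0 were 1.16 (adjusted p = 0.27) in iPSC-derived and -0.09 ± 0.75 (0.95) in bone marrow-derived cells, and the day 12 source difference was 1.69 ± 0.74 (0.17).

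Counted over the 10 genes, most source differences were called at day 0. At that day 7 were called (2 higher and 5 lower in iPSC-derived cells) where 36% of all tested genes were (18.9% higher, 17.1% lower), and their median source difference was -0.90 beside 0.00 over all genes. At day 3 the count was 5 (1 higher, 4 lower) against 17.9% (8.94% higher, 8.92% lower), and at day 6 it was 3, all lower, against 13.2% (6.99% higher, 6.23% lower). At day 12 it was 1, the lower P2ry14, against 9.77% (5.03% higher, 4.74% lower). The count at day 12 was 2 without scaling factors, without the filter or with DESeq2, and 3 without iPSC-derived day 12 replicate 3. It was 0 without iPSC-derived day 12 replicate 1 or 2, without bone marrow-derived day 12 replicate 1, or with only the 2 groups in the fit. A difference between the sources' changes from day 0 was called for 6 genes at day 3 (3 higher, 3 lower in iPSC-derived cells) where 20.5% of all genes were (9.03% higher, 11.5% lower). It was called for 6 at day 12 (4 higher, 2 lower) against 20.1% (9.07% higher, 11% lower). From day 3 to day 12, 3 were called in iPSC-derived cells (1 higher, 2 lower) against 8.89% of all genes (4.07% higher, 4.82% lower), and 3, all lower, in bone marrow-derived cells against 8.45% (4.2% higher, 4.25% lower).

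Of 51 other purinergic genes, 41 passed the filter on low counts, and at day 12 against day 0 15 were higher and 6 lower in iPSC-derived cells and 11 higher and 4 lower in bone marrow-derived cells. Their median log2 fold changes were 0.57 and 0.27, beside 0.04 over all genes in both. Of all tested genes, 14% were higher and 10.7% lower in the first comparison and 14.7% and 9.08% in the second. At day 3, 9 were higher and 4 lower in iPSC-derived cells (11.2% and 8.14% of all genes) and 12 higher and 2 lower in bone marrow-derived cells (11.9% and 6.61%). The median was 0.22 in both, beside 0.04 over all genes. Of 6 tested genes listed as P2Y receptors or relatives, 4 were higher at day 12 in iPSC-derived cells (P2ry12, P2ry13, P2ry1 and Gpr17). In bone marrow-derived cells 3 were higher (P2ry12, P2ry13 and P2ry10b), and none was lower in either source. P2ry10b, Gpr17 and Gpr34 are the tested relatives on that list. P2ry12, the ADP receptor gene of microglial processes, had 20.5, 19 and 28.5 CPM at day 0 and 84.1, 59.3 and 123 at day 12 in iPSC-derived libraries (1.97 ± 0.27, adjusted p = 5.3e-06). In bone marrow-derived libraries P2ry12 had 38.4, 24.5 and 38.3 CPM at day 0 and 97.2, 92.4 and 86.6 at day 12 (1.45 ± 0.26, adjusted p = 0.00017). P2ry13, another ADP receptor gene, rose by 1.31 ± 0.30 (0.0024) and 2.10 ± 0.31 (2.1e-05). P2ry10b rose in bone marrow-derived cells (1.93 ± 0.52, adjusted p = 0.0076) and stood at -0.16 ± 0.47 (0.85) in iPSC-derived cells, and these changes differed (-2.09 ± 0.70, 0.036). Gpr17 was called in iPSC-derived cells, with a ratio of 74.8 to its single day 0 count (interval 13 to 2992; adjusted p = 0.021). In the same libraries the 8 oligodendrocyte markers summed to 89.6 to 125 CPM at day 0 and 111 to 224 at day 12. Among them Olig1 went from 3 to 677 and Olig2 from 0 to 71 pooled counts. The part of such cells in the Gpr17 counts was not tested. Among the 4 tested P2X receptor genes beyond P2rx4 and P2rx7, P2rx1 rose in bone marrow-derived cells, from 0.924 ± 0.875 to 5.99 ± 2.16 CPM (2.66 ± 0.77, adjusted p = 0.013), and 0 were called in iPSC-derived cells at day 12.

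Of 11 tested nucleotide-hydrolysing enzyme genes, 4 were higher and 1 lower at day 12 in iPSC-derived cells. In bone marrow-derived cells 3 were higher and 0 lower. Of all tested genes, 14% were higher and 10.7% lower in the first comparison and 14.7% and 9.08% in the second. Cd38, whose enzyme consumes NAD to make cyclic ADP-ribose, went up in both. It had 40.9, 49.2 and 42.9 CPM at day 0 and 523, 189 and 560 at day 12 in iPSC-derived libraries (3.26 ± 0.35, adjusted p = 7.1e-07). Bone marrow-derived libraries went from 2.71, 1.86 and 3 to 577, 578 and 495 CPM (7.77 ± 0.46, adjusted p = 2.5e-10), and had 845, 653 and 588 CPM at day 3. Its relative Bst1 fell in iPSC-derived cells, from 17.8 ± 5.3 to 0.85 ± 0.754 CPM (-4.41 ± 0.81, adjusted p = 0.00025), and had 1.7 ± 1.66 and 6.11 ± 0.401 CPM in bone marrow-derived cells (1.85 ± 0.74, 0.073). The sources' changes to day 12 differed for Cd38 by -4.51 ± 0.53 (adjusted p = 2.7e-06) and for Bst1 by -6.25 ± 1.09 (0.00017). Enpp2, the secreted enzyme autotaxin, was higher at day 12 with a ratio of 31.6 in iPSC-derived (10.5 to 156; adjusted p = 0.0013) and 22.4 in bone marrow-derived cells (7.41 to 111; 0.0025), from 3 day 0 counts in each. The part of other cell types in the Enpp2 counts was not tested. Entpd3, a relative of Entpd1, was at 0 in all day 0 libraries of both sources, and at least 50.8-fold higher in iPSC-derived day 12, with 8.63, 0 and 8.8 CPM (adjusted p = 0.023).

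Of 4 tested genes for nucleotide release, 1 was higher and 2 lower at day 12 in iPSC-derived cells and 1 higher in bone marrow-derived cells. Over all tested genes the higher and lower shares were 14% and 10.7%, and 14.7% and 9.08%. Panx1, a channel through which ATP leaves cells, fell in iPSC-derived cells from 75.8, 144 and 100 CPM to 34.5, 27.2 and 14.5 (-2.07 ± 0.33, adjusted p = 4.7e-05). Bone marrow-derived cells had 19.6 ± 1.86 and 16.3 ± 1.74 CPM (-0.27 ± 0.33, adjusted p = 0.61), and the sources' changes differed by -1.80 ± 0.46 (0.0063). Slc17a9, the vesicular nucleotide transporter gene, fell in iPSC-derived cells by 2.30 (SE 0.62, adjusted p = 0.0086), from 31.3 ± 9.45 to 6.38 ± 5.67 CPM. Its bone marrow-derived difference was -0.01 ± 0.58 (adjusted p = 1), and the test between the sources' changes did not pass (0.059). Gja1, the connexin gene that is also on the list of astrocytic markers, rose in both sources (2.11 ± 0.53, adjusted p = 0.0044, and 3.85 ± 0.57, 1.5e-05). Lrrc8a, a volume-regulated channel gene, was at 117 ± 26.3 CPM in iPSC-derived and 63.3 ± 16.7 CPM in bone marrow-derived day 12 libraries (0.89 ± 0.22, adjusted p = 0.0082).

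Of 5 tested nucleoside transporter genes, 2 were higher and 1 lower at day 12 in iPSC-derived cells. In bone marrow-derived cells 1 was higher and 1 lower. Over all tested genes the higher and lower shares were 14% and 10.7%, and 14.7% and 9.08%. Slc28a2, a concentrative nucleoside transporter gene, had 0 counts in the 3 iPSC-derived day 12 libraries and 19.5, 16.4 and 15.8 CPM in the bone marrow-derived ones, at least 165-fold higher (adjusted p = 5.5e-08). Slc29a3, an equilibrative transporter gene of lysosomes, rose in iPSC-derived cells (52.9 ± 8.92 to 89 ± 23.2 CPM; 0.75 ± 0.17, adjusted p = 0.0018) and fell in bone marrow-derived cells (197 ± 5.59 to 140 ± 8.17 CPM; -0.49 ± 0.17, 0.032). Slc29a1 rose in iPSC-derived cells (0.62 ± 0.17, adjusted p = 0.0089) and Slc29a2 in bone marrow-derived cells (3.97 ± 0.66, 6.8e-05). Of 3 tested genes that make or clear adenosine inside cells, 1 was lower at day 12 in iPSC-derived and 1 higher in bone marrow-derived cells. The same shares over all tested genes apply. Adk, the kinase that returns adenosine to AMP, fell in iPSC-derived cells from 45.5 ± 15.4 to 24.1 ± 5.01 CPM (-0.92 ± 0.30, adjusted p = 0.025). Ahcy, which frees adenosine from S-adenosylhomocysteine, rose in bone marrow-derived cells from 4.49 ± 1.08 to 14.7 ± 1.88 CPM (1.71 ± 0.31, adjusted p = 0.00018).

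The 8 genes around the P2rx7 channel and the inflammasome were all tested, and at day 12 4 were higher and 1 lower in iPSC-derived cells and 1 higher and 3 lower in bone marrow-derived cells. Among all tested genes the shares were 14% and 10.7%, and 14.7% and 9.08%. The lower genes were Casp1 in iPSC-derived cells and Kcnk6, Casp1 and Nlrp3 in bone marrow-derived cells. Nlrp3 was among the higher genes in iPSC-derived cells. The change from day 0 to day 12 differed between the sources for Nlrp3 and Kcnk6. Kcnk13, a potassium channel gene, rose in both (0.93 ± 0.26, adjusted p = 0.01, and 1.36 ± 0.26, 0.00037). Il1b, the inflammasome's cytokine substrate, was called in iPSC-derived cells (adjusted p = 0.0008), with 27.4, 170 and 4.35 CPM at day 12, so that replicate 2 gives most of its mean of 67.2 ± 89.6 CPM. In bone marrow-derived cells Il1b had 5.3 ± 3.13 CPM at day 0, 389 ± 40 at day 3 and 30.1 ± 3.68 at day 12, the day 12 difference of 2.49 ± 0.93 not being called (0.061). Gsdmd, the pore-forming protein cut by inflammatory caspases, rose in iPSC-derived cells (40.1 ± 3.46 to 68.9 ± 23.6 CPM; 0.78 ± 0.19, adjusted p = 0.0033). At day 12 it was still lower there than in bone marrow-derived cells (-0.96 ± 0.19, adjusted p = 0.001). Pycard, the adaptor of the inflammasome, was also lower in iPSC-derived cells at day 12 (49.9 ± 11.9 against 108 ± 22 CPM; -1.11 ± 0.21, adjusted p = 0.00066).

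For the 6 members with a group mean of at least 20 CPM, the tested genes whose log2 CPM followed them most closely over the 24 libraries were listed. These correlations describe libraries that share groups and depth, and carry no test. Entpd1 was followed by Fmo5 (Pearson r = 0.94) and Arhgap19 (0.91), and P2ry6 by Fgd2 and Rab6b (0.92 each). P2ry14 was followed by Pirb (0.93), one of a family of near-identical receptor genes whose counts are uncertain, and Crybg1 (0.92). P2rx7 was followed by Cyp4f18 (0.92) and Neurl3 (0.91), P2rx4 by Prcp (0.85) and Ugt1a7c (0.84), and P2ry2 by Impa2 (0.81) and Ptgir (0.80). The weakest of these likenesses were those of P2ry2 and P2rx4.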

How the data were processed

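RNA from 24 mouse macrophage cultures was amplified with SMART-seq v2 and sequenced as paired ends, per the labels' protocols. The deposited values are whole-number counts of read pairs per gene, made by the authors with featureCounts 1.5.0-p1 on the GENCODE vM9 annotation with no strand setting and with multi-mapping and multi-gene pairs left out, per the file headers. STAR and mm10 are named in the submitters' processing notes. Gene symbols came from GENCODE vM21 on the same build, and 47224 of 47643 gene IDs matched.

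Genes with low counts were left out by filterByExpr (minimum count 10, minimum total 15), which kept 15000. edgeR 4.0.16 (R 4.3.3) fitted all 24 libraries with TMM scaling factors and 1 coefficient per group, and the quasi-likelihood test was read for 14 comparisons. Benjamini-Hochberg adjustment ran over the 15000 genes of a comparison, with calls at an adjusted p below 0.05. The SE is the log2 fold change divided by the square root of the F statistic. The fit was tested on simulated data in which only genes above a mean-count floor were changed. Adora1 and Adora2a lie below that floor, so the test does not cover calls at such low counts. Intervals of ratios are exact at 95%, and a count of 0 was given a floor of 3 counts over the group. Total counts per library, 5839316 to 11805478, set the precision. CPM relates a count to the scaled library size, and levels are compared between genes only per kilobase of exon.

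Alternatives were no scaling factors, DESeq2 size factors in edgeR, DESeq2 1.42.0, no filter, only the groups compared, a replicate block, and leaving out each library. Named genes were all 10 members, the purinergic genes with the lowest adjusted p at day 12 (at most 4 per role) with P2ry12, P2ry13 and Nt5e, and the 2 genes most alike in log2 CPM (prior count 2) to each member. P2ry1, Casp1, Kcnk6 and Nlrp3 were named after their values were seen. The members and lists were chosen with earlier results of these data known. One listed symbol, Pnp, was not matched, and promoter windows were found for 8 of the 10 members. Correlations of replicate numbers are given with the processing alternatives.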

Additional observations from a re-analysis of the deposited data

Results flagged for a closer look

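The results here are those whose change from day 0 differed between iPSC-derived and bone marrow-derived macrophages by edgeR's test of the difference itself, with Benjamini-Hochberg adjusted p-values. All comparisons in a day share their day 0 libraries, so the day 3 and day 12 values are not independent. At day 3 the adjusted p was 2.3e-07 for Entpd1, 8.9e-05 for P2ry6, 0.0003 for Adora2a, 0.033 for Adora2b, 0.045 for P2ry2 and 0.047 for P2rx4. Entpd1 had opposite called changes in the sources there, 1.30 and -1.31 log2 units. P2ry6 had 1.35 against 0.12 and P2rx4 0.52 against 0.10. P2ry2 had -1.01 against 0.83, neither of which was called alone. Adora2a and Adora2b had lower levels after day 0 in iPSC-derived libraries and higher ones in bone marrow-derived libraries, from few counts.

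At day 12 the adjusted p was 3.1e-07 for P2ry6, 0.00031 for P2rx4, 0.002 for Entpd1, 0.012 for P2rx7, 0.018 for Adora2a and 0.026 for P2ry2. For P2rx4 and Entpd1 the fall in bone marrow-derived cells (-0.70 and -1.30) was called and the iPSC-derived difference (0.12 and -0.04) was not. For P2ry6, P2rx7 and P2ry2 it was the iPSC-derived change that was called (1.88, 0.78 and -1.68).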

How the results depend on the processing

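Over 140 values of the 10 genes and 1800 recomputed values, 1633 stayed on their side of the threshold, 117 lost a call, 50 gained one, and 0 called values changed sign, while 50 values that were not called did change sign, and 33 of 61 calls were kept under every setting. With only the groups compared in the fit, genes called fell to 1876 from 2907 (iPSC-derived day 3 against day 0), 2090 from 3804 (day 6), 2089 from 3706 (day 12) and 315 from 1334 (day 12 against day 3), and rose to 4407 from 2933 (bone marrow-derived day 6) and 2681 from 1267 (bone marrow-derived day 12 against day 3). Members called were then 4 of 7 at iPSC-derived day 6, 2 of 6 at day 12, 1 of 3 for day 12 against day 3, and 0 of 1 between sources at day 12. That last count was 2 with no scaling factors, no filter or DESeq2. The cause of these shifts was not tested.

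Leaving out 1 library gave these ranges of genes called in iPSC-derived cells: 2256 to 2719 at day 3, 2984 to 3744 at day 6, 2777 to 3639 at day 12, and 815 to 1520 for day 12 against day 3. In bone marrow-derived cells they were 2086 to 2181, 2099 to 2278, 2734 to 2921 and 806 to 998. Between sources they were 4591 to 4914 at day 0, 2005 to 2553 at day 3, 1367 to 2049 at day 6 and 1060 to 1610 at day 12, and for the difference in change 2585 to 3049 at day 3 and 2640 to 3130 at day 12. Members called ranged over 3 to 5, 4 to 7, 4 to 6 and 1 to 4 in iPSC-derived cells, 2 to 3, 2 to 3, 3 to 4 and 1 to 2 in bone marrow-derived cells, 6 to 8, 4 to 5, 2 to 3 and 0 to 3 between sources, and 3 to 6 and 4 to 7 for the difference in change. Without iPSC-derived day 0 replicate 3, members called were 3 at day 3 and 4 at day 6. For iPSC-derived day 12 against day 3, genes called were 833 without day 3 replicate 1, 889 without day 12 replicate 1 and 815 without day 12 replicate 2, with 1 member called in the first and last. For bone marrow-derived day 12 against day 3, genes called were 806 without day 3 replicate 3, and 1 member was called without day 3 replicate 1 or day 12 replicate 2. For the day 3 difference in change, 3 members were called without iPSC-derived day 3 replicate 1 or 2, bone marrow-derived day 0 replicate 2, or bone marrow-derived day 3 replicate 1 or 3.

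Without scaling factors the split of higher and lower calls moved, with all-gene medians in parentheses: 1259 and 2082 at iPSC-derived day 3 (-0.14), 1733 and 2057 at day 12 (-0.07), 728 and 547 for day 12 against day 3 (0.08), 2328 and 673 at bone marrow-derived day 6 (0.17), 2820 and 882 at day 12 (0.22), 790 and 505 for day 12 against day 3 (0.10), 922 and 1987 between sources at day 3 (-0.22, from 1341 and 1338), 806 and 1182 at day 6 (-0.09, from 1048 and 934), 416 and 1235 at day 12 (-0.25), and 914 and 2425 (-0.28) and 846 and 2473 (-0.31) for the difference in change at days 3 and 12. Between sources at day 3, P2ry6 (-0.46, adjusted p = 0.021) and P2rx4 (-0.35, 0.037) passed in that fit.

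The replicate numbers were not taken to pair the samples. Deviations of same-numbered libraries correlated from -0.0545 to 0.161 within iPSC-derived cells (18 pairs, median 0.032), -0.0209 to 0.0397 within bone marrow-derived cells (18 pairs, 0.011) and -0.0757 to 0.07 across sources (48 pairs, -0.0013). Differently numbered libraries gave -0.205 to 0.106 (median -0.017), -0.0451 to 0.0402 (-0.0054) and -0.0483 to 0.0842 (0.00047). A weak pairing in iPSC-derived cells is thus not excluded. With a replicate block 6, 9, 6 and 4 members were called in iPSC-derived cells, 3, 2, 4 and 3 in bone marrow-derived cells, 7, 5, 4 and 1 between sources, and 6 and 7 for the difference in change, and no count of all genes called moved by over 1.5 times. The block ended the calls of Adora1 at bone marrow-derived day 3 (adjusted p = 0.074) and of the P2rx4 difference in change at day 3 (0.056). It added P2rx7 at iPSC-derived day 6 (0.041), Adora2a at iPSC-derived day 3 (0.041), P2ry14 for iPSC-derived day 12 against day 3 (0.021), the P2rx7 difference in change at day 3 (0.035), and Adora2b in 4 comparisons (0.036 to 0.045). Depth limits the adenosine receptor genes, Adora1 most, with 0 to 51 counts over the 3 libraries of a group.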
